A study of Codonopsis pilosula with 12 samples.

Results

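FSD2, FSD3 and CITRX1 are 3 nuclear genes whose products are known in other plants to sit on the transcription machinery of the chloroplast. They were chosen by gene ID with their levels in these leaves already known, out of 55270 assembled genes. FSD2 (TRINITY_DN16824_c0_g1) and FSD3 (TRINITY_DN18702_c1_g3) had as best SwissProt hits the chloroplast iron superoxide dismutases FSD2 and FSD3 of Arabidopsis, and CITRX1 (TRINITY_DN15247_c0_g1) a thioredoxin-like chloroplast protein of Nicotiana benthamiana. The annotation holds 2 genes with an iron superoxide dismutase hit and 1 with a CITRX hit, so the 3 genes are all of their kind in the table. The assembly listed 8 transcripts for FSD2 (gene length 2657 bp), 4 for FSD3 (1051 bp) and 4 for CITRX1 (1854 bp). Because the genes were chosen with their levels known, those levels and fold changes are given as a description, without a test.

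Leaf RNA of Codonopsis pilosula, a perennial medicinal herb, was sequenced in 12 libraries from potted seedlings of cultivars G1 (Gandang No. 1) and W1 (Weidang No. 1). DG1 and DW1 were the droughted leaves of G1 and W1, taken on day 4 after watering stopped, and CG1 and CW1 were the watered leaves of the same cultivars, taken on day 0, when seedlings were 4 weeks past emergence. Each group had 3 libraries, all groups grew in 1 soil, and the labels name no other treatment. No watered plants of day 4 are among these samples, so drought and the 4 days between samplings cannot be told apart. The labels speak of mixes of 2 pots, whereas by the study's methods every replicate came from its own pot, and spreads here are those between libraries. CW1 replicate 1 is a control by its title, and its treatment label says drought.

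The chloroplast has its own genome, and most of its photosynthesis genes are transcribed by a plastid-encoded RNA polymerase, PEP, whose core subunits come from the plastid rpo genes. PEP works only with a set of nuclear-encoded associated proteins, and in Arabidopsis these include FSD3, FSD2 and the thioredoxin TrxZ, the relative of CITRX. Iron superoxide dismutases turn superoxide into hydrogen peroxide and are known in Arabidopsis to form a complex of FSD2 with FSD3 at the plastid nucleoid, and TrxZ binds the fructokinase-like proteins FLN1 and FLN2. Arabidopsis mutants of these genes are known for pale or albino leaves.

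In both cultivars the 3 genes had lower levels in droughted than in watered leaves, and for each of them all 6 droughted libraries lay below all 6 watered ones. Levels are in TPM, a transcript abundance that is scaled by transcript length and by library total. FSD2 was at 4.47, 2.97 and 3.15 TPM in DG1, against 26.43, 13.78 and 16.36 TPM in CG1. It was at 5.72, 3.41 and 3.23 TPM in DW1, against 23.12, 32.22 and 9.67 TPM in CW1. The lowest watered library, CW1 replicate 3, was thus still above the highest droughted one, DW1 replicate 1. Group means were 3.53 ± 0.819 TPM in DG1 and 18.9 ± 6.68 TPM in CG1, and 4.12 ± 1.39 TPM in DW1 and 21.7 ± 11.3 TPM in CW1 (SD, n = 3 each).

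FSD3 was the most abundant of the 3 genes in every droughted library. It was at 11.56, 9.56 and 13.71 TPM in DG1, against 41.91, 20.3 and 42.6 TPM in CG1. It was at 10.14, 9.69 and 8.19 TPM in DW1, against 21.87, 32.31 and 15.36 TPM in CW1. Here the water states lay closest together, with 13.71 TPM in DG1 replicate 3 against 15.36 TPM in CW1 replicate 3. Means were 11.6 ± 2.08 TPM in DG1 and 34.9 ± 12.7 TPM in CG1, and 9.34 ± 1.02 TPM in DW1 and 23.2 ± 8.55 TPM in CW1 (SD, n = 3 each).

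CITRX1 was at 5.13, 7.5 and 7.25 TPM in DG1, against 41.07, 29.29 and 32.57 TPM in CG1. It was at 6.04, 8.52 and 5.59 TPM in DW1, against 34.76, 41.1 and 16.17 TPM in CW1. Its droughted groups were nearly level, at 6.63 ± 1.30 TPM in DG1 and 6.72 ± 1.58 TPM in DW1, and the watered ones were at 34.3 ± 6.08 TPM in CG1 and 30.7 ± 13 TPM in CW1 (SD, n = 3 each). CW1 replicate 3 was the lowest watered library for all 3 genes.

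**Figure D1:**
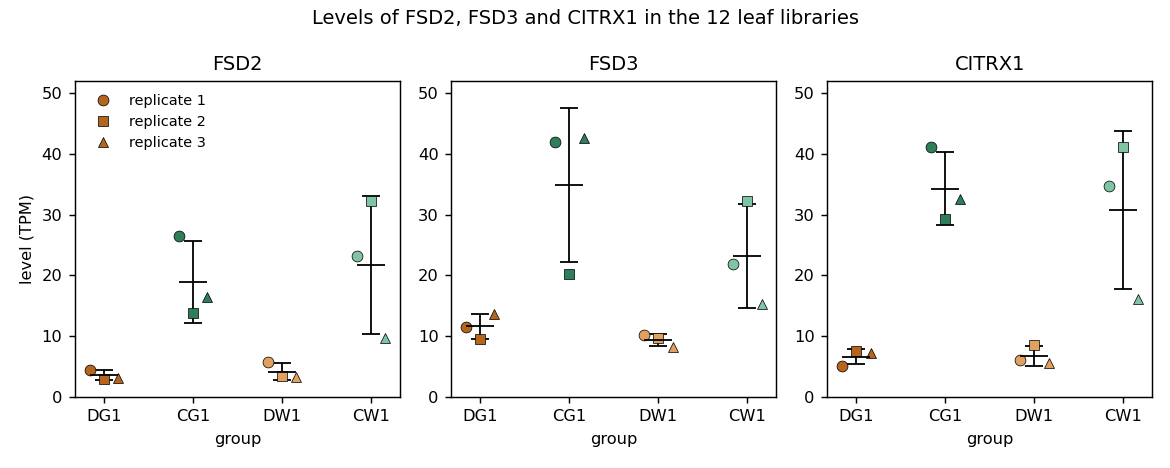
Level in TPM of FSD2, FSD3 and CITRX1 in each library, with 1 panel per gene, the 4 groups along the x axis and 1 symbol per replicate number. Bars give the group mean ± SD (n = 3), and in each panel the droughted libraries (DG1, DW1) all lie below the watered ones (CG1, CW1), by the smallest margin for FSD3 at 13.71 against 15.36 TPM.

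A gap of this kind was seen in 4.96% of the 29168 genes that passed the filter on low counts, which had all 6 droughted TPM values below all 6 watered ones, and all 3 members passed that filter. Since the members were picked on these levels, nothing is read from the comparison with that share. Between DG1 and CG1 alone 19.0% of genes had lower values without overlap, and between DW1 and CW1 alone 13.7%.

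On the log2 scale of the fitted counts, FSD2 was lower in DG1 than in CG1 by 5.52-fold (log2 fold change -2.47 ± 0.34, SE) and lower in DW1 than in CW1 by 6.11-fold (-2.61 ± 0.34). CITRX1 was 4.97-fold lower in DG1 than in CG1 (-2.31 ± 0.32) and 4.26-fold lower in DW1 than in CW1 (-2.09 ± 0.31). FSD3 had the smallest differences, 2.97-fold in G1 (-1.57 ± 0.28) and 2.34-fold in W1 (-1.23 ± 0.28). In both contrasts FSD3 therefore stood closest to its watered level. FSD2 had the lowest estimates on this scale, but its order against CITRX1 is not settled. Their ranges with 1 library left out, given next, overlapped in both cultivars. Leaving out each library in turn moved the FSD2 value between -2.57 and -2.32 in G1 and between -2.95 and -2.35 in W1. The same ranges were -2.43 to -2.14 and -2.39 to -1.88 for CITRX1, and -1.79 to -1.35 and -1.44 to -0.97 for FSD3. Without CW1 replicate 1, whose labels conflict, the W1 values were -2.47 for FSD2, -1.25 for FSD3 and -1.97 for CITRX1.

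At a given water state the cultivars lay close together for FSD2 and CITRX1, and less so for FSD3 in watered leaves. The log2 difference of DG1 over DW1 was 0.19 ± 0.32 for FSD2, 0.38 ± 0.28 for FSD3 and 0.08 ± 0.31 for CITRX1 (SE). That of CG1 over CW1 was 0.05 ± 0.32 for FSD2, 0.72 ± 0.28 for FSD3 and 0.30 ± 0.30 for CITRX1, so FSD3 was the member with the widest gap between cultivars. With each library left out in turn, that FSD3 value for CG1 over CW1 ran from 0.49 to 0.98. Some signs of the small differences of FSD2 and CITRX1 depended on the scale. Limma on log2(TPM + 1) gave FSD2 -0.16 for DG1 over DW1 and -0.09 for CG1 over CW1, and CITRX1 -0.01 for DG1 over DW1. From low to high mean TPM, the order was DG1, DW1, CG1, CW1 for FSD2, and DG1, DW1, CW1, CG1 for CITRX1. For FSD3 it was DW1, DG1, CW1, CG1. In each order the 2 droughted groups overlapped each other, as did the 2 watered groups, and the only gap without overlap lay between droughted and watered leaves. The drought difference in G1 minus that in W1 was 0.15 ± 0.45 for FSD2, -0.34 ± 0.39 for FSD3 and -0.22 ± 0.43 for CITRX1 (log2, SE), less than 1 SE from 0 in each case.

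The depth behind these values was modest in droughted leaves. Expected counts, the reads that the quantification assigned to a gene, ran from 78 (DW1 replicate 2) to 1570 (CW1 replicate 2) for FSD2, from 120 to 781 for FSD3 and from 130 to 1460 for CITRX1. The ratio of counts to TPM gives the mean length of the transcripts that the reads were assigned to, a measure added after the values were seen. That mean stayed at 993 to 1024 bp for FSD3 and 1516 to 1559 bp for CITRX1. For FSD2 it was 1955, 2349 and 2373 bp in DG1, against 2356, 2345 and 2345 bp in CG1. In W1 it was 1460, 1724 and 2368 bp in DW1, against 2355, 2039 and 2196 bp in CW1. The mix of FSD2 transcripts was thus shortest in DW1 replicates 1 and 2, and it overlapped between water states in both cultivars.

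Several features of the libraries moved beside these levels. For the counts of calls given from here on, 12.3% of all genes tested fell and 11.5% rose in G1, and 0.799% fell and 0.771% rose in W1 (edgeR's quasi-likelihood test). In W1, 11.3% were lower and 9.94% higher at an unadjusted p under 0.05, and DESeq2 called 7.01% lower and 5.79% higher. Total counts ran from 12415229 to 22837632 per library. DG1 replicate 1 stood apart: its 28 leaf mesophyll marker genes (Rubisco small subunit, light-harvesting proteins and the like) summed to 14616.8 TPM, against 67811.6 to 139111.0 TPM in the other libraries. Of these markers 3 rose and 1 fell in G1 (median -0.56), and in W1 edgeR called 0 (median 0.40), where 2 were higher at an unadjusted p under 0.05 and DESeq2 called 1 higher. The 3 that rose were among the carbonic anhydrase and Rubisco activase genes, and no Rubisco small subunit or light-harvesting gene rose. In that library 2.483% of TPM came from genes with a vertebrate SwissProt hit and no NR hit, against 0.141% to 0.245% elsewhere. Without it, the G1 values were -2.53 for FSD2, -1.54 for FSD3 and -2.14 for CITRX1. The 22 markers of secondary walls and vascular tissue summed to 218.0 to 415.7 TPM in droughted libraries and 507.7 to 666.4 TPM in watered ones, and 8 of the 16 tested fell in G1 (3 without DG1 replicate 1) and 0 in W1 by edgeR, where 1 had an unadjusted p under 0.05 and DESeq2 called 0. The 19 root markers summed to 281.8 TPM in DG1 replicate 1 and 53.6 to 235.4 TPM in the other libraries, and of 10 tested 6 rose in G1 (median 2.75) and 1 rose without that library. In W1 edgeR called 0 root markers (median 1.24), where 5 were higher and 1 lower at an unadjusted p under 0.05 and DESeq2 called 2 higher. The 6 guard cell markers summed to 7.2 to 15.8 TPM in droughted and 8.5 to 13.6 TPM in watered libraries. No gene of these 4 lists was at 0 in all libraries. The part of these shifts in the members' levels was not tested, and in whole leaves fewer cells of a type and less RNA per cell cannot be told apart.

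None of the other superoxide dismutase genes of the list passed the test for a drought difference. They are the manganese enzyme of mitochondria (SODA) and a pair of copper/zinc enzymes (SODCC.1 and SODCC.2), listed with the chaperone CCS that loads copper into the copper/zinc enzymes. By edgeR, 0 of these 4 genes were called in G1 or in W1, with a median log2 fold change of 0.15 in G1 and 0.04 in W1, beside 0.01 and 0.02 over all genes tested. At an unadjusted p under 0.05, and by DESeq2, the counts were also 0 of 4 in both cultivars. SODA was at 118.75, 121.91 and 109.37 TPM in DG1, against 139.91, 110.52 and 111.11 TPM in CG1, and the groups overlapped (log2 fold change -0.02 ± 0.17, SE). In W1 its log2 fold change was 0.13 ± 0.17. SODCC.1 was at -0.15 ± 0.26 in G1 and -0.04 ± 0.26 in W1, and SODCC.2 at 0.32 ± 0.27 and 0.22 ± 0.27. CCS was at 0.78 ± 0.36 in G1 and -0.26 ± 0.36 in W1. Left out of the list and of the shares below were 3 genes with human SwissProt hits (SOD1, SOD2 and another CCS), which were at 2.38 to 9.58 TPM in DG1 replicate 1 and at most 2.15 TPM in the other libraries.

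The metal make-up of superoxide dismutase transcripts thus differed between water states. FSD2 and FSD3 together made 5.05%, 4.02% and 5.22% of the summed dismutase TPM in DG1, against 16.8%, 11.1% and 17.3% in CG1. They made 3.55%, 4.34% and 4.36% in DW1, against 13.1%, 15.3% and 7.52% in CW1. No droughted library reached the lowest watered one. The 3 other dismutase genes summed to 302 ± 3.59 TPM in DG1 and 297 ± 35.4 TPM in CG1, and to 323 ± 94.7 TPM in DW1 and 322 ± 32.3 TPM in CW1 (SD, n = 3 each). The share is set by the members' own levels and is a description. Within the iron enzymes, the TPM ratio of FSD3 to FSD2 was 3.39 ± 0.892 in DG1 and 1.89 ± 0.621 in CG1, and 2.38 ± 0.552 in DW1 and 1.18 ± 0.357 in CW1. The ranges touched in G1, at 2.59 to 4.35 in DG1 against 1.47 to 2.6 in CG1, and did not overlap in W1, at 1.77 to 2.84 in DW1 against 0.946 to 1.59 in CW1.

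**Figure D2:**
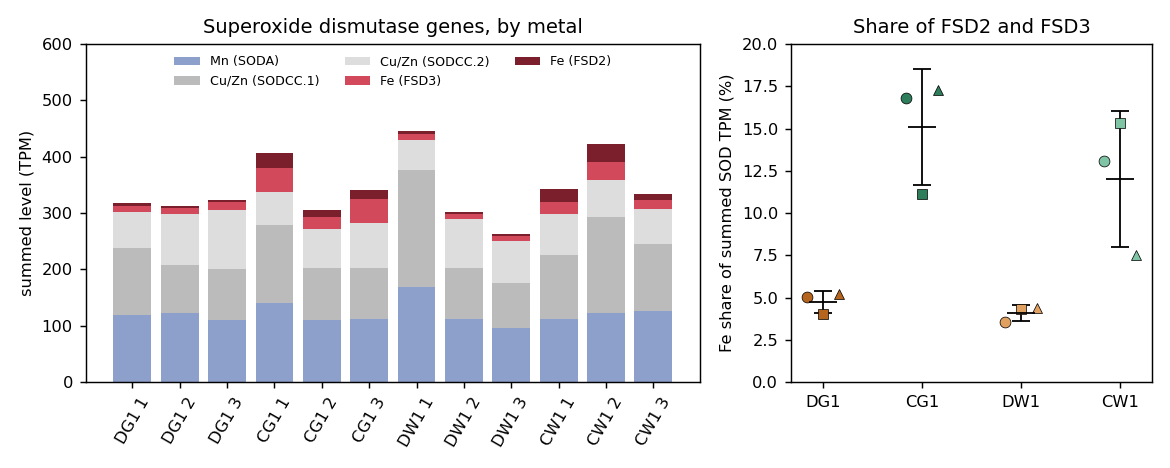
Left, stacked bars of the TPM of the 5 superoxide dismutase genes in each library, coloured by metal. Right, share of FSD2 and FSD3 in that sum per library in percent, with group mean ± SD (n = 3); the droughted groups lie at 3.55% to 5.22% and the watered ones at 7.52% to 17.3%.

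Of the genes of the other PEP-associated proteins, all 9 were tested. In G1, 6 fell and 0 rose, where 12.3% of all genes tested fell and 11.5% rose, and the median log2 fold change was -0.91. In W1, 1 fell and 0 rose, where 0.799% of all genes fell and 0.771% rose, and the median was -0.92, nearly that of G1. All-gene medians were 0.01 in G1 and 0.02 in W1. All 9 fold changes were below 0 in both cultivars. Every droughted library lay below every watered one in 6 of the 9 genes, and in 4.96% of all genes tested. DESeq2 called 6 lower in G1 and 6 lower in W1, where it called 16.5% and 7.01% of all genes lower.

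PTAC14, a SET-domain protein of the PEP complex, was at 7.66, 13.31 and 10.38 TPM in DG1, against 35.38, 33.65 and 31.46 TPM in CG1, without overlap. It fell in G1 (log2 fold change -1.66 ± 0.26, SE, adjusted p = 0.00257), and in W1 its value was -1.16 ± 0.26 (adjusted p = 0.0514). FLN1, the fructokinase-like partner of TrxZ in Arabidopsis, was at 6.58, 9.55 and 9.52 TPM in DG1, against 29.44, 22.71 and 29.01 TPM in CG1. It fell in G1 (-1.63 ± 0.24, adjusted p = 0.00226), and its W1 value was -1.09 ± 0.24 (adjusted p = 0.0521). FLN2, the second such partner, fell in G1 (-0.73 ± 0.21, adjusted p = 0.0326), and its W1 value was -0.93 ± 0.22 (adjusted p = 0.0586). PTAC2, a pentatricopeptide repeat protein, fell in G1 (-1.18 ± 0.20, adjusted p = 0.00332), and so did PTAC12, also known for its part in light signalling (-0.91 ± 0.23, adjusted p = 0.0169). In W1 these were at -0.71 ± 0.20 and -0.92 ± 0.23 and did not pass the test.

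The murE-like gene TRINITY_DN16953_c0_g4, whose product in Arabidopsis is a PEP component rather than a wall enzyme, was the 1 gene of the list that fell in both cultivars. It was at 9.37, 8.87 and 9.13 TPM in DG1, against 22.16, 15.17 and 17.93 TPM in CG1, and at 9.16, 7.81 and 7.86 TPM in DW1, against 23.99, 20.87 and 12.21 TPM in CW1. Its log2 fold changes were -1.04 ± 0.22 in G1 (SE, adjusted p = 0.0083) and -1.12 ± 0.22 in W1 (adjusted p = 0.0406). A second murE-like gene, TRINITY_DN20208_c1_g4, was at -0.37 ± 0.22 in G1 and -0.36 ± 0.23 in W1, and reads may be shared between them. PTAC10 (-0.51 ± 0.26 and -0.72 ± 0.26) and PTAC7 (-0.59 ± 0.26 and -0.60 ± 0.26) did not pass the test in G1 or W1. The G1 count for the list was 4 to 6 with 1 library left out. The FLN2 call was lost without any 1 of the 6 G1 libraries (adjusted p = 0.0598 to 0.0947), and the PTAC12 call without CG1 replicate 3 or DG1 replicate 1 (adjusted p = 0.0575 and 0.0589).

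Calls in W1 by edgeR depended on which library was left out, and the cause was not tested. Over all genes 458 were called in W1. Of such fits, 1 was called without CW1 replicate 1, 0 without CW1 replicate 2 and 4 without DW1 replicate 2, while 1862 were called without DW1 replicate 1. Leaving out libraries of G1 moved the W1 count too, to 44 without CG1 replicate 3 and 722 without DG1 replicate 1. Without CW1 replicate 2 the count at an unadjusted p under 0.05 was 3919, and DESeq2 on all libraries called 3318. Every W1 call of a gene named here was lost in each of those first 3 fits, and other libraries mattered too: of the 12 fits without 1 library, the murE-like gene kept its W1 call in 3 (adjusted p elsewhere 0.0513 to 0.206). For the PEP-associated proteins the W1 count ran from 0 to 7 with 1 library left out, and it was 3 without DG1 replicate 1. By edgeR, 0 of the 218 tested genes of the lists described here (markers apart) were called for either difference between cultivars or for the interaction. Over all genes tested edgeR called 0.00686% for DG1 over DW1, 0.442% for CG1 over CW1 and 0.0137% for the interaction. For DG1 over DW1, 27 of the 218 had an unadjusted p under 0.05 (16% of all genes) and DESeq2 called 10 (4.89%). Of these 10, 3 genes of peroxide removal and 1 of the other thioredoxins were higher in DG1. Lower were 2 plastid housekeeping transcripts, 2 nuclear photosynthesis transcripts and 2 of the other thioredoxins. The 10 of 218 lie near the share over all genes, so nothing is read from them. For CG1 over CW1 the counts were 25 (12.8% of all genes) and 3 (4.92%), and for the interaction 16 (9.49%) and 1 (1.36%).

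**Figure D3:**
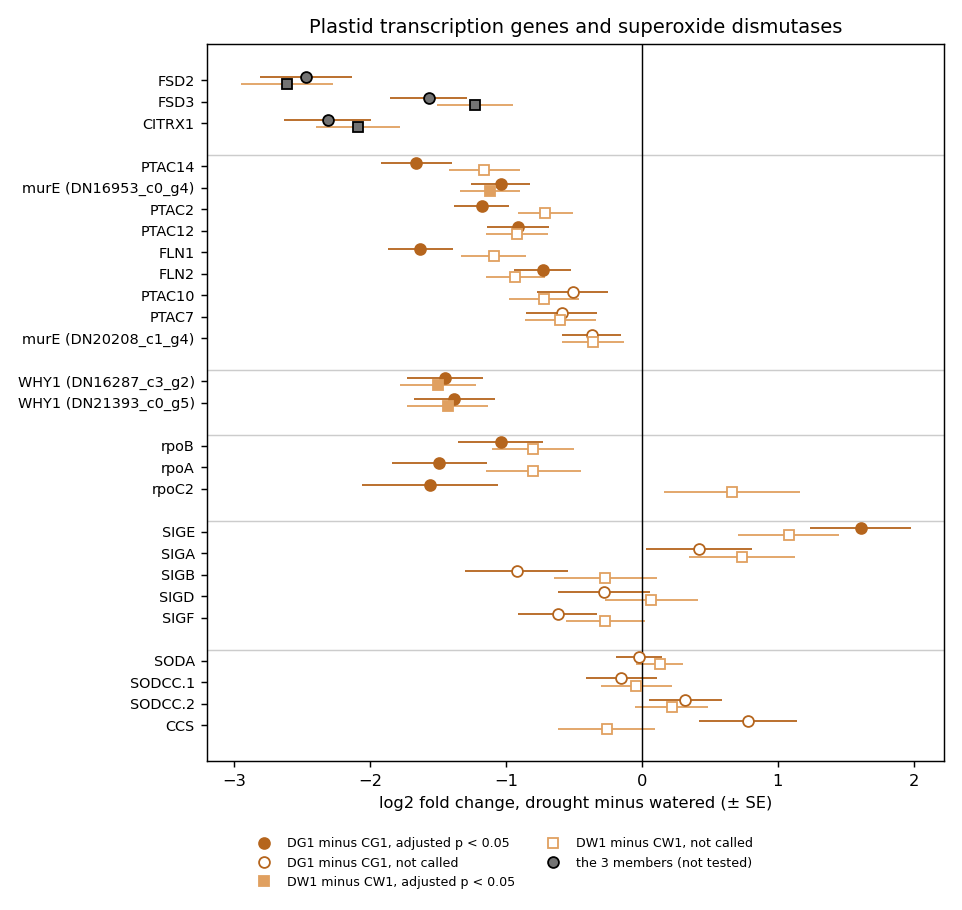
Log2 fold change of droughted over watered leaves on the x axis, with SE bars, for the 3 members (grey, not tested), PEP-associated proteins, WHY1 genes, plastid polymerase subunits, sigma factors and other superoxide dismutases. Circles give DG1 minus CG1 and squares DW1 minus CW1, filled where the adjusted p was under 0.05; FSD2 and CITRX1 lie below -2, the PEP-associated proteins between -1.66 and -0.36, and SIGE above 1.

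Sigma factors guide PEP to promoters. All 9 genes for sigma factors and phage-type polymerases were tested, 1 rose in G1, 0 fell, and in W1 0 were called by edgeR. At an unadjusted p under 0.05, 1 rose and 1 fell in W1, and DESeq2 called 1 higher there. The median log2 fold change was -0.28 in G1 and -0.27 in W1. SIGE was the gene that rose, at 32.31, 65.39 and 116.88 TPM in DG1, against 19.98, 23.68 and 26.20 TPM in CG1, without overlap (log2 fold change 1.61 ± 0.37, SE, adjusted p = 0.0123). In W1 its value was 1.08 ± 0.37 (adjusted p = 0.131), at 46.07, 56.77 and 67.92 TPM in DW1, against 24.76, 29.21 and 35.42 TPM in CW1. SIGA (0.42 ± 0.39), SIGB (-0.92 ± 0.38), SIGD (-0.28 ± 0.34) and SIGF (-0.62 ± 0.29) did not pass the test in G1.

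Among nucleoid and other proteins of transcriptionally active plastid chromosomes, 2 of 6 tested genes fell in G1 and the same 2 fell in W1. Both are annotated as WHY1, a single-stranded DNA-binding protein of the nucleoid, and they may share reads. WHY1 TRINITY_DN16287_c3_g2 was at 30.94, 20.98 and 23.07 TPM in DG1, against 96.38, 67.16 and 66.70 TPM in CG1. It was at 31.93, 23.42 and 27.04 TPM in DW1, against 101.10, 125.20 and 45.21 TPM in CW1. Its log2 fold changes were -1.45 ± 0.28 in G1 (adjusted p = 0.00555) and -1.50 ± 0.28 in W1 (adjusted p = 0.0391). WHY1 TRINITY_DN21393_c0_g5 was at -1.38 ± 0.30 in G1 (adjusted p = 0.00966) and -1.43 ± 0.30 in W1 (adjusted p = 0.0458). Both G1 calls held without each single library, and the W1 calls held in 4 and 3 of the 12 such fits (adjusted p elsewhere 0.0568 to 0.211). The list's median was -0.93 in G1 and -0.90 in W1.

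Transcripts of the plastid genome itself, which PEP and a phage-type polymerase make, were captured only in part, because the libraries were made from poly(A)-selected RNA and plastid transcripts are mostly without such tails. Of 10 assembled genes annotated as polymerase core subunits 6 were tested. Of these, 3 fell in G1 and 0 were called in W1, with medians of -1.27 in G1 and -0.16 in W1. Several share a name (rpoB or rpoC2) and may be pieces of the same plastid gene, so these counts are of assembled genes. With 1 library left out, 1 or 2 fell in G1. rpoA (-1.49 ± 0.35, adjusted p = 0.0132) held without each single library. rpoB TRINITY_DN19258_c1_g4 (-1.04 ± 0.31, adjusted p = 0.032) was lost without 5 of the 6 G1 libraries, all but DG1 replicate 1 (adjusted p = 0.0546 to 0.0979). rpoC2 TRINITY_DN12974_c1_g3 (-1.56 ± 0.50, adjusted p = 0.0445) was lost in each of the 12 fits without 1 library (adjusted p = 0.0546 to 0.164). That rpoC2 entry was near the floor, at 0.36, 0.47 and 0.50 TPM in DG1, against 2.32, 0.84 and 1.06 TPM in CG1. At an unadjusted p under 0.05, 1 rose and 2 fell in W1, and DESeq2 called 0 there.

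Of 36 assembled genes annotated as plastid photosynthesis transcripts 26 were tested. Several share a name, such as ndhF or ndhD, and may be pieces of the same plastid gene. In G1, 5 fell and 0 rose (median -1.60), and 4 to 8 fell with 1 library left out. In W1, 0 were called (median -0.57). The unadjusted counts in W1 were 1 higher and 2 lower, and DESeq2 called 1 lower. The 4 of highest CPM were atpA (-1.78 ± 0.37, adjusted p = 0.00776), petA (-2.02 ± 0.41, adjusted p = 0.00671), ndhH (-1.62 ± 0.32, adjusted p = 0.00594) and atpB (-1.87 ± 0.60, adjusted p = 0.0453) in G1. They encode subunits of ATP synthase, cytochrome f and a subunit of the NDH complex. The atpB call was lost without any 1 of the G1 or DW1 libraries (adjusted p = 0.0539 to 0.156).

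Of 23 assembled genes annotated as plastid housekeeping transcripts 17 were tested. In G1, 5 fell (median -1.14), and in W1, 2 fell (median -0.27). Several of the list share a name, such as TIC214 or Ycf2, and may be pieces of the same plastid gene. matK, the maturase that splices plastid introns, was at 2.22, 4.90 and 3.33 TPM in DG1, against 65.29, 67.66 and 72.23 TPM in CG1 (log2 fold change -4.28 ± 0.42, adjusted p = 0.000755). It was at 7.91, 13.56 and 6.44 TPM in DW1, against 87.97, 67.52 and 42.05 TPM in CW1 (-2.73 ± 0.39, adjusted p = 0.0256). The ribosomal protein transcript rps3 fell in G1 (-3.18 ± 0.33, adjusted p = 0.000829) and in W1 (-2.75 ± 0.33, adjusted p = 0.0175). Of the 12 fits without 1 library, the W1 call held in 8 for matK and 9 for rps3 (adjusted p elsewhere 0.0532 to 0.14). In G1 rps16 (-2.19 ± 0.41, adjusted p = 0.00514) and rps4 (-1.27 ± 0.32, adjusted p = 0.0178) also fell, the second not without CG1 replicate 2 or DG1 replicate 1 (adjusted p = 0.0742 and 0.0512). In DG1 replicate 1 the summed mesophyll markers were low, as given above, and without that library 4 photosynthesis and 3 housekeeping transcripts fell in G1.

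Nuclear photosynthesis genes encode antenna and photosystem proteins made in the cytosol. Of 48 tested, 1 fell in G1 (median -0.46) and 0 were called in W1 (median 0.36), where unadjusted counts were 1 higher and 0 lower and DESeq2 called 0. The gene that fell was CAB13, at 2.55, 71.16 and 52.29 TPM in DG1, against 634.89, 487.25 and 650.39 TPM in CG1 (-3.88 ± 0.96, adjusted p = 0.0159), a call lost without DG1 replicate 3 (adjusted p = 0.054). With 1 library left out, 0 to 4 genes of the list fell in G1.

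Of the other chloroplast thioredoxins and their reductases, the enzymes that pass electrons to target proteins, 14 were tested. In G1, 1 rose and 2 fell (median 0.13), and in W1 0 were called (median 0.34), with 0 at an unadjusted p under 0.05 and 0 by DESeq2. Their fold changes ran from -1.03 to 2.31 in G1 and from -0.55 to 0.86 in W1. NTRC, which passes electrons from NADPH to 2-Cys peroxiredoxins, fell in G1 (-1.03 ± 0.27, adjusted p = 0.0193), at 17.98, 25.67 and 25.06 TPM in DG1, against 34.63, 52.52 and 52.03 TPM in CG1. That call was lost without CG1 replicate 2, CG1 replicate 3 or DG1 replicate 1 (adjusted p = 0.0651 to 0.072). Thioredoxin Y1 (At1g76760) fell in G1 (-0.98 ± 0.24, adjusted p = 0.014), a call lost without CG1 replicate 3 (adjusted p = 0.0524). A second NTRC-like gene (Os07g0657900) rose, at 7.98, 3.13 and 4.70 TPM in DG1, against 1.49, 0.48 and 0.27 TPM in CG1 (2.31 ± 0.49, adjusted p = 0.0083), and the NTRC genes may share reads. In W1 it was at 4.18, 4.95 and 4.09 TPM in DW1, against 4.31, 5.76 and 14.11 TPM in CW1, so CG1 was the group that lay below the other 3. Its log2 difference of CG1 over CW1 was -2.44 ± 0.49 (adjusted p = 0.0626, and 0.00283 without CG1 replicate 1), and that of the drought differences was 2.18 ± 0.66 (adjusted p = 0.386, and 0.0338 without CG1 replicate 1). With 1 library left out, 0 to 3 genes of the list fell in G1, and without DG1 replicate 1 the count was 1.

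Of 40 other thioredoxin genes tested, 9 rose and 7 fell in G1 (median 0.21), and by edgeR 0 rose and 1 fell in W1 (median 0.17). At an unadjusted p under 0.05, 7 were higher and 3 lower in W1, DESeq2 called 5 higher and 2 lower there, and with 1 library left out 0 to 4 rose. Without DG1 replicate 1 the G1 counts were 5 and 4, and over all such fits 4 to 11 rose and 3 to 7 fell. Probable nucleoredoxin 2 (Os01g0794400) was at 85.49, 53.93 and 53.39 TPM in DG1, against 7.56, 7.93 and 7.4 TPM in CG1 (3.07 ± 0.65, adjusted p = 0.00844). Thioredoxin-like 1-2 of the chloroplast (Os03g0326500) rose in G1 (1.54 ± 0.24, adjusted p = 0.00252), as did the chloroplast AAED1-like gene TRINITY_DN15270_c3_g2 (1.24 ± 0.27, adjusted p = 0.00988). Thioredoxin H-type 1 (TRINITY_DN17017_c1_g1) rose too (1.26 ± 0.32, adjusted p = 0.0183), a call lost without CG1 replicate 3 or DG1 replicate 1 (adjusted p = 0.0515 and 0.0541). Both TTL1 genes, thioredoxins with tetratricopeptide repeats that may share reads, fell in G1. TRINITY_DN15073_c0_g2 was at -3.11 ± 0.36 (adjusted p = 0.00104) and TRINITY_DN19949_c0_g2 at -1.88 ± 0.20 (adjusted p = 0.000829). The second also fell in W1 (-1.03 ± 0.19, adjusted p = 0.0402), a call held in 4 of the 12 fits without 1 library (adjusted p elsewhere 0.0507 to 0.205). At5g39865, which SwissProt describes as an uncharacterized protein, fell in G1 (-1.45 ± 0.45, adjusted p = 0.0382). At2g18990, a homolog of thioredoxin domain protein 9, fell too (-0.51 ± 0.17, adjusted p = 0.0457). These calls held in 5 and 2 of those fits (adjusted p elsewhere 0.0506 to 0.149).

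Peroxide is what iron superoxide dismutases make, and genes that remove it were called in both directions, at shares to be read beside the 11.5% of all genes that rose and 12.3% that fell. Of 24 tested, among them some not placed in the chloroplast, 5 rose and 3 fell in G1 (median 0.19). The 3 that fell are described as chloroplastic, and the descriptions of the risen genes named here do not mention the chloroplast. Most genes of the list described as chloroplastic were not called in either direction, and not every risen gene is named. In W1, 0 were called (median 0.27), where unadjusted counts were 3 higher and 0 lower and DESeq2 called 1 higher. BAS1, the abundant 2-Cys peroxiredoxin of the chloroplast, was at 281.82, 433.49 and 330.27 TPM in DG1, against 627.52, 1075.61 and 1027.43 TPM in CG1 (-1.43 ± 0.35, adjusted p = 0.0148). PRXIIE, another chloroplast peroxiredoxin, fell (-1.2 ± 0.37, adjusted p = 0.0375), and so did the peroxiredoxin-2E gene TRINITY_DN16842_c1_g5 of the same assembly cluster, with which it may share reads (-2.16 ± 0.55, adjusted p = 0.0189). TRINITY_DN16842_c1_g5 was near the floor, at 0.23, 0.82 and 0.93 TPM in DG1, against 4.57, 2.17 and 2.77 TPM in CG1. A monodehydroascorbate reductase (AFRR), which recycles ascorbate, was at 1172.78, 355.06 and 340.47 TPM in DG1, against 163.92, 182.70 and 119.29 TPM in CG1 (1.72 ± 0.36, adjusted p = 0.00797). The glutathione peroxidase TRINITY_DN15980_c0_g3 rose as well (2.27 ± 0.44, adjusted p = 0.00582). For both of these DG1 replicate 1 was the highest library, and both calls held without it. The BAS1 call was lost without CG1 replicate 2, CG1 replicate 3 or DG1 replicate 3 (adjusted p = 0.0518 to 0.0527). The PRXIIE call was lost without CG1 replicate 2, CG1 replicate 3, CW1 replicate 2, DG1 replicate 1, DG1 replicate 3 or DW1 replicate 3 (adjusted p = 0.0512 to 0.139). DHAR2, a dehydroascorbate reductase (0.85 ± 0.24, adjusted p = 0.0278), and GPX8, a glutathione peroxidase (1.28 ± 0.33, adjusted p = 0.0181), rose with calls held in 7 and 9 of the 12 fits without 1 library, and that of TRINITY_DN16842_c1_g5 held in 9. Without DG1 replicate 1, 3 genes of the list rose and 1 fell, and over all such fits 3 to 5 rose and 0 to 3 fell.

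Of 15 tested genes for chloroplast iron storage and iron-sulfur delivery, 3 rose and 2 fell in G1 (median -0.08), and 0 were called in W1 (median 0.08), where unadjusted counts were 3 higher and 4 lower and DESeq2 called 2 higher and 2 lower. Ferritin-3, which stores iron in the plastid, was at 261.57, 177.50 and 144.39 TPM in DG1, against 96.97, 48.14 and 50.23 TPM in CG1 (1.74 ± 0.33, adjusted p = 0.0056). In W1 ferritin-3 was at 159.98, 134.36 and 136.93 TPM in DW1, against 90.04, 47.33 and 82.74 TPM in CW1 (1.11 ± 0.33, adjusted p = 0.0972). ABCI8, a subunit of the iron-sulfur scaffold, rose in G1 (1.5 ± 0.30, adjusted p = 0.00635), and NFS2, the cysteine desulfurase that supplies sulfur, fell (-1.03 ± 0.23, adjusted p = 0.0102). SUFE2, which activates NFS2 in Arabidopsis (2.49 ± 0.78, adjusted p = 0.0405), rose and TIC21 of the inner envelope (-0.38 ± 0.12, adjusted p = 0.0408) fell, with calls held in 5 and 2 of the 12 fits without 1 library (adjusted p elsewhere 0.0505 to 0.17). Without DG1 replicate 1, 2 genes of the list rose and 1 fell, and over all such fits 2 to 4 rose and 1 to 5 fell.

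The genes whose levels followed each member most closely were found by Pearson r of log2(TPM + 1) over the 12 libraries, among 14764 annotated genes that averaged at least 5 TPM. Most of such an r comes from the split between droughted and watered leaves, and the libraries also share depth and composition, so r is a description of likeness. For FSD2 they were GYRA (DNA gyrase A of plastids and mitochondria, r = 0.996), WHY1 TRINITY_DN16287_c3_g2 (0.993), a histone H2B gene (HIS2B, 0.988), TOC75-3 (the import channel of the outer envelope, 0.987) and OEP80 (an outer envelope protein, 0.986). GYRA was at 6.92 to 10.97 TPM in droughted libraries and 15.07 to 31.82 TPM in watered ones, and HIS2B at 290.45 to 603.82 TPM and 816.62 to 3543.5 TPM. Within a water state, r of FSD2 with these 5 genes ran from 0.652 (TOC75-3) to 0.938 (GYRA) over the 6 droughted libraries and from 0.936 (OEP80) to 0.994 (TOC75-3) over the 6 watered ones.

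For CITRX1 they were FTSZ2-1, a ring protein of chloroplast division (r = 0.994), a growth-regulating factor 8 gene (TRINITY_DN14752_c0_g2, 0.988), the ketol-acid reductoisomerase PGAAIR of branched amino acid synthesis (0.987), the alpha subunit of the RuBisCO-binding chaperonin (TRINITY_DN19395_c0_g5, 0.986) and the envelope ADP,ATP carrier EAAC (0.982). FTSZ2-1 was at 41.38 to 60.11 TPM in droughted libraries and 80.21 to 141.19 TPM in watered ones. The growth-regulating factor gene was at 0.23 to 1.84 TPM in droughted libraries and 4.95 to 37.32 TPM in watered ones. FSD3 had no neighbour as close: ribonuclease J (rnj) led with r = 0.948, before an uncharacterized gene (TRINITY_DN20010_c0_g2, 0.946), DPD1 (an exonuclease of organelle DNA, 0.944), ACR4 (0.940) and a GDSL lipase gene (At1g71691, 0.939). Over the 6 droughted libraries r of FSD3 with them was 0.196 to 0.871, and over the 6 watered ones 0.79 to 0.947.

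**Figure D4:**
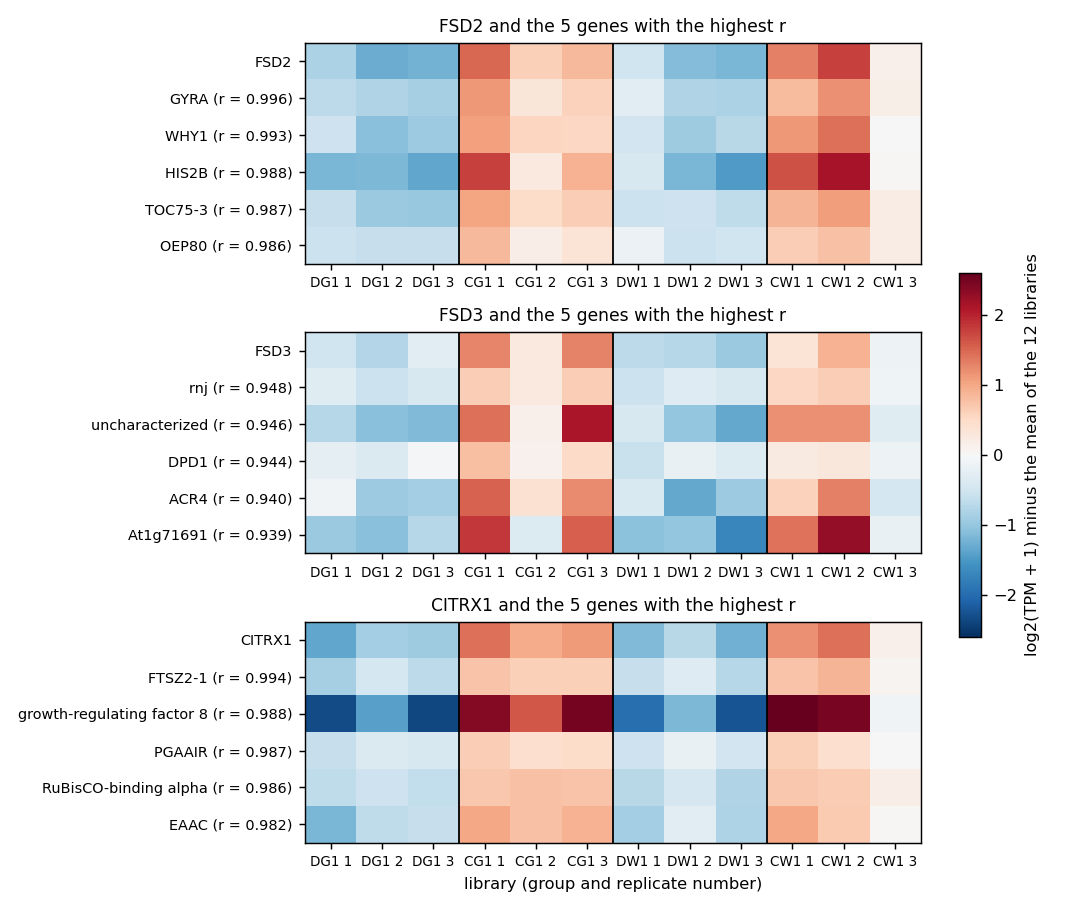
Each row is a gene and each column a library. Colour gives log2(TPM + 1) minus the gene's mean over the 12 libraries (red higher, blue lower), for each member and the 5 genes of highest r with it, and CW1 replicate 3 is the palest watered library in most rows.

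The annotations of the closest genes were counted next. Among the 50 genes most like FSD2, 28 were annotated as cytosolic (40S or 60S) ribosomal proteins and 11 as core or linker histones, and 5 had a SwissProt name with the word chloroplastic. Among the 50 most like CITRX1 these counts were 0, 0 and 18, and among those most like FSD3 they were 1, 2 and 11. Over all 14764 genes the shares were 1.67%, 0.244% and 8.03%. The ribosomal and histone words were picked after the first neighbours were seen, and no test was run. At least 0.9 was reached by r in 842 genes for FSD2, 481 for CITRX1 and 53 for FSD3.

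Between the members, r over the 12 libraries was 0.952 for FSD2 with CITRX1, 0.914 for FSD3 with CITRX1 and 0.895 for FSD2 with FSD3. Over the 6 watered libraries alone the values were 0.917, 0.763 and 0.636, and over the 6 droughted ones -0.511, 0.069 and 0.088. Among watered leaves CW1 replicate 3 was the lowest library for all 3 genes, and among droughted leaves no library was lowest for all of them. Among all genes ranked by likeness to FSD2, CITRX1 was number 306 and FSD3 number 895. By likeness to FSD3, CITRX1 was number 19 and FSD2 number 74, and by likeness to CITRX1, FSD2 was number 77 and FSD3 number 330.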

How the data were processed

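Leaf RNA of the 12 libraries was poly(A) selected and sequenced. The authors assembled the clean reads with Trinity and no reference genome, and computed expected counts and TPM per gene with RSEM before they deposited the table, which also gives gene lengths in bp and database hits. The sample labels name a mouse genome build, and other kits and pot numbers than the methods. Strand handling is not given in the sources used here. Related genes can share reads.

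Groups followed titles. Deposited expected counts were rounded, genes of low count were removed by filterByExpr, and 29168 genes were fitted in edgeR 4.0.16 (R 4.3.3, limma 3.58.1) with TMM normalization, 1 mean per group and the quasi-likelihood test, with 8 residual degrees of freedom and a common dispersion of 0.217. Calls had a Benjamini-Hochberg adjusted p under 0.05 over all genes tested, and "rose" or "fell" means called. SE is the log2 fold change over the square root of F. TPM was used for levels, with a pseudocount of 1 on the log2 scale. Mean transcript length was the expected count over TPM, scaled per library on genes with 1 transcript. Members and lists were chosen with earlier results of these data known. Lists were taken by words of the annotation and are described by counts and medians, without set tests.

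Named were the 3 members, every called gene of the PEP-associated, sigma factor and other dismutase lists with up to 4 uncalled ones of highest CPM, up to 4 called genes per direction of other lists by CPM, and the 5 genes most like each member. Alternatives were DESeq2 1.42.0 (size factors, and the Wald test), no count filter, limma-trend on log2 TPM with pseudocounts of 1 and 0.1, the replicate number as a block, and each library left out. Depth limits precision, and p-values measure only the spread between libraries, which may be technical. The fit was also run on simulated counts with a dispersion of 0.1, below the 0.217 of these data. That run therefore does not give its error rate here.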

Additional observations from a re-analysis of the deposited data

How the results depend on the processing

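The members' log2 fold changes kept their direction in G1 and W1 under every alternative run, and 1 of them moved by more than the spread between libraries: FSD2 in W1 was at -2.03 by limma-trend with a pseudocount of 1. Levels as TMM-normalized CPM, or as TPM rescaled without non-plant genes, gave the same differences within that spread. Counts of calls over all genes depended on tool and library, and the cause was not tested. With each library left out in turn, calls ran from 3914 to 7121 in G1, 0 to 1862 in W1, 3 to 1190 for CG1 over CW1, 0 to 32 for DG1 over DW1 and 0 to 308 for the interaction. The DESeq2 Wald test called 3318 genes in W1, 1416 for CG1 over CW1, 1407 for DG1 over DW1 and 369 for the interaction. Limma-trend called 270 and 163 in W1 (pseudocounts of 1 and 0.1), 259 and 213 for CG1 over CW1, 84 and 70 for DG1 over DW1, and, with a pseudocount of 1, 11 for the interaction. Without the filter W1 had 240 calls and DG1 over DW1 had 6, and DESeq2 size factors left 1 for DG1 over DW1.

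Same-numbered libraries did not deviate together (correlations of residuals -0.177 to 0.104), so the numbers were not taken as pairs. With the replicate block, 23 genes were called for CG1 over CW1 and 0 for the interaction, where 2538 had an unadjusted p under 0.05 in edgeR and DESeq2 without the block called 369.

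Of the 5 genes most like each member, Spearman ranking kept 0 in the first 5 for FSD2, 2 for FSD3 and 1 for CITRX1. A pseudocount of 0.1 kept 2 for FSD2. Without DG1 replicate 1, 2 were kept for FSD2, 3 for FSD3 and 4 for CITRX1. No call of a named gene changed direction. Over all alternatives, 266 values of these called genes no longer passed the test and 1030 still passed it. Calls gained only under an alternative are not in that tally. For the PEP-associated proteins in W1, DESeq2 called 6 lower, where edgeR called 1.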
